A study of Mus musculus with 27 samples.

Results

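The insulin-like growth factor (Igf) axis was described in mK4 cells, a mouse cell line derived from the metanephric mesenchyme of the embryonic kidney, through 10 genes: the ligands Igf1 and Igf2, the receptors Igf1r and Igf2r, and the binding proteins Igfbp2 to Igfbp7. The genes were taken by their symbols, and all 10 have a row in the expression table, which lists 24953 genes. Poly(A) RNA-seq was compared between control mK4 cells, Runx1KO cells and ZebDKO cells, with 3 libraries of each. Control cells were the parental line, Runx1KO cells had lost the exon of Runx1 that holds the start codon, and ZebDKO cells had lost the start codon exons of both Zeb1 and Zeb2. All 3 genotypes were grown in medium with 10% fetal bovine serum, which itself holds Igf proteins, and were taken close to confluence. The knockouts were made with CRISPR-Cas9 and selected with puromycin. How many clones stand behind each knockout is not given in the sources used here, and a difference between clones cannot be told apart from one between genotypes. The ZebDKO libraries carry other notes on processing and RNA extraction in the labels than the remaining 6, so library round and genotype cannot be told apart for them.

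Igf1 and Igf2 are secreted peptides that bind the receptor tyrosine kinase Igf1r, which signals through insulin receptor substrates to PI3 kinase and Akt and promotes growth and survival. Igf2r, also known as the cation-independent mannose 6-phosphate receptor, carries lysosomal enzymes and takes up Igf2 for degradation. Igfbp2 to Igfbp6 are secreted proteins that bind both ligands with high affinity, and can hold them away from the receptor or keep a local store. Igfbp7 is a related protein of low affinity for the ligands. Igf2 is the ligand typical of fetal tissues.

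The expression values are in TPM, which scale reads by gene length and by the sum of each library. Setting levels of different genes side by side thus rests on the lengths used. The read depth cannot be read from TPM values. Between 12541 and 12697 genes reached 1 TPM in each library. TPM is summed over a whole gene and cannot show the loss of an exon, so the targeted genes do not check the labels. Runx1 stood at 15.6 to 18.7 TPM in control, 28.5 to 30.3 TPM in Runx1KO and 9.4 to 10.5 TPM in ZebDKO libraries. Zeb1 stood at 14.2 to 15.6, 0.1 to 0.2 and 14.8 to 16.8 TPM, and Zeb2 at 4.9 to 5.5, 0.2 and 1.6 to 1.8 TPM, in the same order. Of the marker lists, 10 epithelial genes together held 3.3 to 5.8 TPM in control, 2663.5 to 2745.2 TPM in Runx1KO and 1151.1 to 1210.4 TPM in ZebDKO libraries. The 10 mesenchymal genes held 3101.1 to 3229.6, 2951.6 to 3013.9 and 2379.5 to 2412.2 TPM, and the 10 genes of the metanephric list 670.6 to 681.8, 716.4 to 784.6 and 615.3 to 645.5 TPM, with 2, 2 and 1 of its genes at 0. These sums mostly follow single genes. Vim, a filament protein, gave 2748.8 to 2887 TPM of the mesenchymal sum in control, 2782.2 to 2844.7 TPM in Runx1KO and 2075.9 to 2114.3 TPM in ZebDKO libraries. Genes of these lists were filtered and called as given below for the 10 Igf axis genes. In Runx1KO against control 4 of the 8 mesenchymal genes tested were called lower and 0 higher, against 5.1% and 7.91% of all genes. The 4 were Zeb1, Zeb2, Col3a1 and Fn1 (from 52.6 to 17.97 TPM). All but Fn1 passed the filter only through control, which set their direction but not the size. At a limma adjusted p under 0.05 alone 5 were lower and 1 higher, against 40.1% and 30.4% of all genes. The higher one was Snai2 (from 4.6 to 8.4 TPM). In ZebDKO against control 2 of 8 were called lower, the targeted Zeb2 and Col3a1, and 0 higher. Of all genes 7.28% were called lower and 7.49% higher. Col3a1 passed the filter only through control. At adjusted p alone 4 were lower and 3 higher, among the latter Fn1 (97.3 TPM), against 52.5% and 26.9% of all genes. Of 6 metanephric genes tested, 3 were called lower and 0 higher in Runx1KO cells, against 5.1% and 7.91% of all genes. These were Osr1 (from 66.4 to 0.4 TPM), Gdnf (from 12.7 to 0.1 TPM) and Eya1 (from 16.2 to 5.87 TPM). Osr1 and Gdnf passed the filter only through control, which set their direction but not the size. At adjusted p alone 3 were lower and 2 higher in Runx1KO cells, against 40.1% and 30.4% of all genes. The 2 higher ones were Pax2 (from 313.2 to 470 TPM) and Sall1 (from 52.1 to 65.7 TPM). In ZebDKO cells Osr1 was called lower (18.2 TPM) and Gdnf higher (39.8 TPM), against 7.28% and 7.49% of all genes. There 3 were lower and 2 higher at adjusted p alone, against 52.5% and 26.9% of all genes. With so few genes tested per marker list, nothing is read from these shares. Of the defining metanephric genes, Pax2 was at 209.5 to 501 TPM over all 9 libraries, while Six2 was at most 0.2 TPM and Wt1 at most 0.3 TPM. Among the epithelial genes, 7 of 7 tested were called higher in Runx1KO and 5 of 5 in ZebDKO cells against control. The shares of all genes called higher were 7.91% and 7.49%. All but Krt8, and Ovol1 in Runx1KO, passed the filter only through the knockout, which set their direction but not the size. Most of the epithelial sum was the keratin Krt8, while the epithelial cadherin Cdh1 was at most 0.6 TPM in any library. Cldn4 was at 0.133 TPM in control, 231.6 TPM in Runx1KO and 47.3 TPM in ZebDKO cells. Epcam was listed at 0 in all control and Runx1KO libraries and at 26.7 to 28.8 TPM in ZebDKO libraries. The 6 endothelial genes summed to at most 5.8 TPM and the 6 leukocyte genes to at most 3.3 TPM in any library. The part of these marker shifts in the results below was not tested.

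DNA from deposited regions near binding protein genes and Igf2r is shown first. Of 11245 tested genes with a position, 43.9% had a region within 50 kb that closed in Runx1KO cells. In control cells 63.1% had a Runx1 peak and 87.8% a Runx2 peak within that distance. Whether such regions bear on expression was not tested. Positions are in the mm9 build. Igfbp2 lies on chromosome 1 from 72871077 to 72899048 on the plus strand, and Igfbp5 lies next to it from 72904506 to 72921458 on the minus strand, so that both genes end toward each other across a gap of 5.46 kb. The promoter windows are RefSeq sequences of GRCm38.p6, from 250 bases before to 50 after the start, and each was found unchanged in mm9. In the first of the 2 Igfbp2 windows (GRCm38.p6, chr1:72824230-72824529, plus strand) capitals mark the 131 bases under a region that closed in Runx1KO cells. The Igfbp5 window (GRCm38.p6, chr1:72874816-72875115, minus strand) lies whole, with 300 of 300 bases, under another such region and is printed in lower case.
Igfbp2 promoter: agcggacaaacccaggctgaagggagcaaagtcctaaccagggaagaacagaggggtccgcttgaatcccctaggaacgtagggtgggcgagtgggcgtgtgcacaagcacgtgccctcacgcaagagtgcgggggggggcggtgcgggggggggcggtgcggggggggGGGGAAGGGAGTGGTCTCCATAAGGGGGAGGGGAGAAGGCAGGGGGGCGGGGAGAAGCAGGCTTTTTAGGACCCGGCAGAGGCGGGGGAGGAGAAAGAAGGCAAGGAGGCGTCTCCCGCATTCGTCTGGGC
Igfbp5 promoter: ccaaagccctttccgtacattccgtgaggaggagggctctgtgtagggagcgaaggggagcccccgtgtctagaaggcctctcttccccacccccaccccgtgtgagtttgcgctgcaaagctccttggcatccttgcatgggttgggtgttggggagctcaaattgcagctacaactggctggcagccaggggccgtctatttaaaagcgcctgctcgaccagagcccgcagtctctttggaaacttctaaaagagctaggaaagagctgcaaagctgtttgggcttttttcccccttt

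The remaining sequences are plus strand mm9 sequence under ChIP-seq peaks, with capitals on TGTGGT, the core letters of the Runx site, or on its reverse complement. The Igfbp4 sequence (chr11:98938154-98938453) is the middle of the Runx1 peak 35.7 kb downstream of the start of Igfbp4, inside an intron of Tns4. The Igfbp5 sequence (chr1:72925665-72925772) is the Runx2 peak of control cells 4.26 kb upstream of the start, between genes. The Igfbp7 sequence (chr5:77813209-77813508) is the middle of a Runx1 peak 23.7 kb into the gene, in an intron. The Igf2r sequence (chr17:12997496-12997608) is a Runx1 peak 35.0 kb upstream of the start, in an intron of the antisense gene Airn, and holds the letters at 2 places.
Igfbp4, Runx1 peak: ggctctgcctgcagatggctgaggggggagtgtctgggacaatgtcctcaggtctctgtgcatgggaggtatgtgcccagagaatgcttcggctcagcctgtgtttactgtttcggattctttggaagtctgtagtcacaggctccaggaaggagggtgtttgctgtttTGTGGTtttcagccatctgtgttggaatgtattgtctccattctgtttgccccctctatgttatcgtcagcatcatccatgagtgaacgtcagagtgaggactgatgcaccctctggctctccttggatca
Igfbp5, Runx2 peak: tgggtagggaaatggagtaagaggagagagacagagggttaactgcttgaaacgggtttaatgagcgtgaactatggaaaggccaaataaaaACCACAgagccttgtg
Igfbp7, Runx1 peak: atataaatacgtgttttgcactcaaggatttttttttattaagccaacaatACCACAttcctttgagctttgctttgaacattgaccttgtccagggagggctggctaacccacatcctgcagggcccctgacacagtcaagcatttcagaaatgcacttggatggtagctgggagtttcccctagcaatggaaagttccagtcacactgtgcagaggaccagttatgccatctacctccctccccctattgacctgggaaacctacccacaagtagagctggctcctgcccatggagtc
Igf2r, Runx1 peak: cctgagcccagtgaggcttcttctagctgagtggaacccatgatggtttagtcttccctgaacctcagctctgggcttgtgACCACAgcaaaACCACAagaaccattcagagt

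In control cells Igfbp2 was the most abundant transcript of the axis, and Igf2 was the ligand expressed. The order by mean TPM was Igfbp2, Igf2, Igfbp7, Igfbp4, Igf2r, Igf1r, Igfbp5, Igfbp6, Igf1 and Igfbp3, and the 3 libraries of each gene did not overlap those of the next. In Runx1KO cells the order was Igfbp7, Igf2, Igf2r, Igf1r, Igfbp2, Igfbp6 and Igfbp4, with Igfbp5, Igf1 and Igfbp3 at or near 0 and overlapping. In ZebDKO cells it was Igfbp7, Igf2, Igfbp4, Igf2r, Igfbp2, Igf1r, Igfbp5 and Igfbp6, with Igf1 and Igfbp3 overlapping near 0, and only Igfbp4 and Igf2r overlapped among the genes above 1 TPM. Order between genes rests on the lengths used for TPM. A further deposited table of the 6 control and Runx1KO libraries put Igf2 at a mean of 264.5 TPM in control against 106.1 TPM here, and Igf1r at 14.1 against 29.97 TPM. In that table Igf2 stood above Igfbp7 in Runx1KO cells, at 306.2 against 179.4 TPM, the opposite of the order given above.

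**Figure D1:**
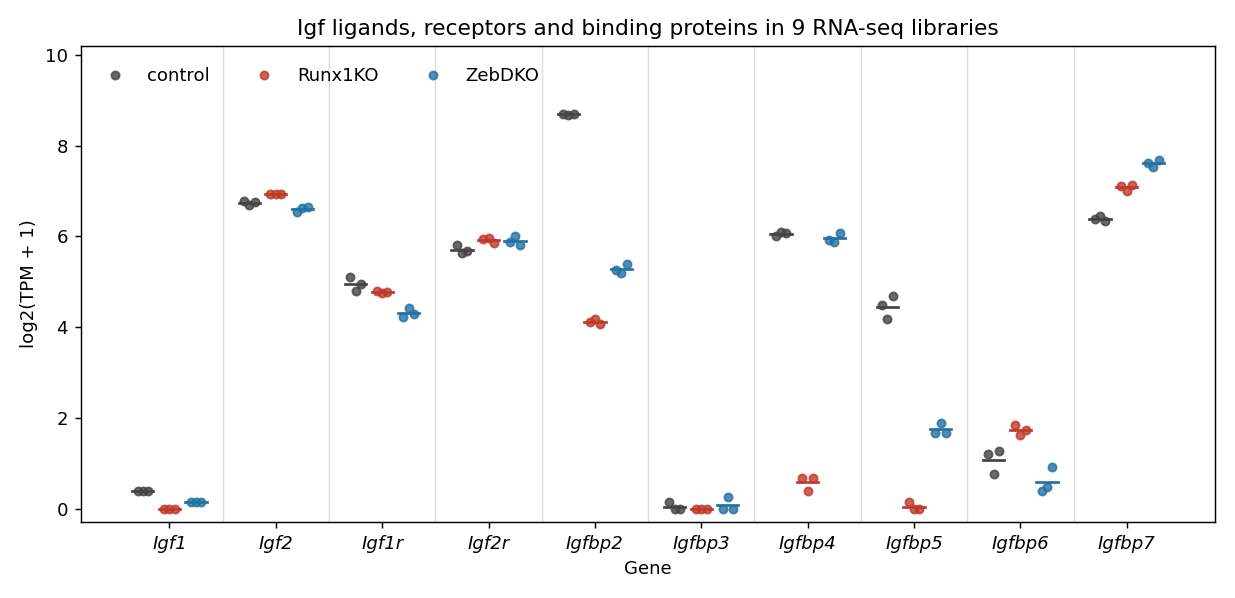
Levels of the 10 genes in the 9 RNA-seq libraries, as log2(TPM + 1) on the vertical axis, with 1 point per library and a bar at the mean of each genotype. Igfbp2 and Igfbp5 are lower, and Igfbp7 is higher, in both knockouts than in control. Igfbp4 is low in Runx1KO libraries (0.3 to 0.6 TPM) and not in ZebDKO libraries (57.7 to 66.5 TPM).

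The 2 knockouts were each compared with control, and with each other, by limma on log2(TPM + 1). A gene was tested when 3 or more of the 6 libraries reached 1 TPM, p-values were adjusted by Benjamini-Hochberg over all genes tested, and a gene was called when it differed by over 2-fold at an adjusted p under 0.05. Of the 10 genes, 8 were tested for Runx1KO against control, 7 for ZebDKO against control and 8 for Runx1KO against ZebDKO. Igf1 and Igfbp3 were too low in all 3. Igfbp4 and Igfbp5 passed the filter only through the other group in both comparisons with Runx1KO, and Igfbp6 only through Runx1KO against ZebDKO, so those genes had to differ to be tested. Both comparisons with control share the control libraries, so their values are given side by side.

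In Runx1KO cells 3 of the 8 genes tested were called lower, Igfbp2, Igfbp4 and Igfbp5, and 0 were called higher. Igfbp4 and Igfbp5 passed the filter only through control, which set their direction but not the size. Of all 13067 genes tested, 5.1% were called lower and 7.91% higher. At an adjusted p under 0.05 with no limit on the fold, 3 members were lower and 4 higher, while 40.1% of all genes were lower and 30.4% higher. The 3 lower members at adjusted p alone are thus near the share of all genes. The median log2 difference was 0.01 over the 8 members and -0.06 over all genes.

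In ZebDKO cells 2 of the 7 genes tested were called lower, Igfbp2 and Igfbp5, and 1, Igfbp7, was called higher. Over the 12974 genes tested 7.28% were called lower and 7.49% higher. At adjusted p alone 4 members were lower and 2 higher, against 52.5% and 26.9% of all genes. The median over all genes was -0.18 on the log2 scale, and rescaling the libraries by median ratios moved it to 0.01, so differences of that size in ZebDKO cells depend on the scaling. With this scaling the calls over all genes went from 972 higher and 944 lower to 1188 higher and 653 lower. The median over the 7 members was -0.14.

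Between the knockouts 4 of the 8 genes tested were called. Igfbp2, Igfbp4 and Igfbp5 were lower and Igfbp6 was higher in Runx1KO cells, against 6.59% of 13071 genes called lower and 9.2% called higher. Igfbp4, Igfbp5 and Igfbp6 passed the filter only through the group where they are high, which set their direction but not the size. At adjusted p alone 4 members were lower and 3 higher, while 29.8% of all genes were lower and 50.2% higher. The median over all genes was 0.15, and it was 0.00 with median-ratio scaling, which changed the calls over all genes from 1203 higher and 862 lower to 918 higher and 1054 lower. The median over the 8 members was -0.26.

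**Figure D2:**
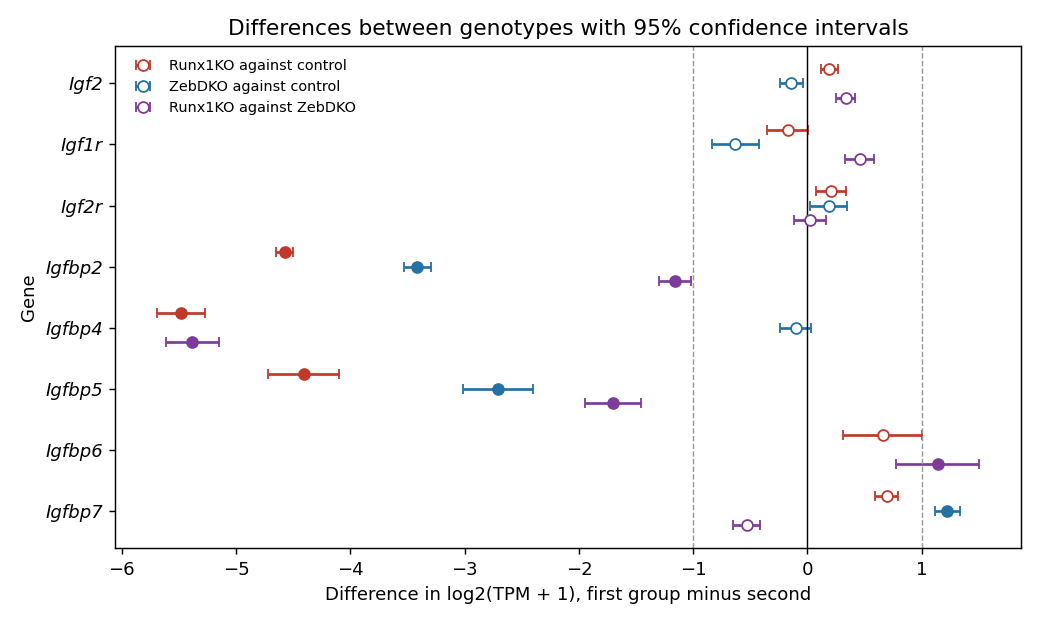
Differences in log2(TPM + 1) for the 8 genes tested, as the first group named minus the second, with 95% confidence intervals from limma (3 libraries per group). Filled points passed both limits, open points did not, and dashed lines mark 2-fold. Igfbp4 differs by over 5 log2 units in both comparisons of Runx1KO cells and by -0.10 in ZebDKO against control.

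Igfbp2, a binding protein of fetal tissues, had the highest level of the axis in control cells, at 413, 409.7 and 414.6 TPM. It was at 16.2, 17 and 15.9 TPM in Runx1KO and at 37.1, 35.5 and 40.8 TPM in ZebDKO libraries. The 3 genotypes did not overlap, and the ZebDKO level lay between those of the other two. The mean was 25.2-fold higher in control than in Runx1KO cells, with a log2 difference of -4.57 (SE 0.032, limma Benjamini-Hochberg adjusted p = 1.12e-09). It was 10.9-fold higher in control than in ZebDKO cells (log2 difference -3.42, SE 0.050, adjusted p = 1.16e-08). The direct difference between Runx1KO and ZebDKO cells was -1.16 (SE 0.058, adjusted p = 1.70e-06), or 2.31-fold.

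Igfbp5, a binding protein that also attaches to extracellular matrix, stood at 21.4, 17.2 and 24.9 TPM in control libraries. It was listed at 0.1, 0 and 0 TPM in Runx1KO and at 2.2, 2.7 and 2.2 TPM in ZebDKO libraries. As with Igfbp2 the order was control, ZebDKO, Runx1KO, with no overlap. On the log2(TPM + 1) scale the difference was -4.41 (SE 0.13, adjusted p = 2.14e-07) for Runx1KO against control and -2.71 (SE 0.13, adjusted p = 1.72e-06) for ZebDKO against control, where control was 8.94-fold higher. Between Runx1KO and ZebDKO cells it was -1.70 (SE 0.10, adjusted p = 4.54e-06). Since TPM has 1 decimal and Runx1KO lies at its lowest steps, these log2 values depend on the added 1. The filter set the direction of both Runx1KO differences, as Igfbp5 passed it only through the other group.

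Igfbp4 lets Igf ligands go when the protease Pappa cuts it, and it set the knockouts apart. It stood at 63.3, 67.4 and 66.7 TPM in control, 0.6, 0.3 and 0.6 TPM in Runx1KO, and 59.9, 57.7 and 66.5 TPM in ZebDKO libraries. The Runx1KO libraries lay far below all others, while the ZebDKO and control libraries overlapped. The log2 difference was -5.48 (SE 0.090, adjusted p = 1.66e-08) for Runx1KO against control and -5.38 (SE 0.098, adjusted p = 2.88e-08) for Runx1KO against ZebDKO. For ZebDKO against control it was -0.10 (95% interval -0.24 to 0.03, adjusted p = 0.141), and 0.10 after median-ratio scaling. The filter set the direction of both Runx1KO differences, as Igfbp4 passed it only through the other group.

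Igfbp7, a secreted protein of the vessel wall and other matrix, was at 82.1, 86.3 and 80.3 TPM in control libraries. Its values were 137.1, 127.7 and 139 TPM in Runx1KO and 195.9, 184.3 and 205.5 TPM in ZebDKO libraries. The 3 genotypes did not overlap, with control lowest and ZebDKO highest. Its mean was 1.62-fold higher in Runx1KO than in control cells (log2 difference 0.69, SE 0.043, adjusted p = 8.99e-06), which is under the 2-fold limit. It was 2.36-fold higher in ZebDKO than in control cells (1.23, SE 0.048, adjusted p = 6.63e-07). Runx1KO cells were lower than ZebDKO cells by -0.53 (SE 0.049, adjusted p = 3.83e-05).

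Igfbp6, which prefers Igf2 over Igf1, was low throughout. It stood at 1.3, 0.7 and 1.4 TPM in control, 2.6, 2.1 and 2.3 TPM in Runx1KO, and 0.3, 0.4 and 0.9 TPM in ZebDKO libraries. All Runx1KO libraries lay above all others, while control and ZebDKO overlapped. The log2 difference was 0.66 (SE 0.15, adjusted p = 0.00558) for Runx1KO against control and 1.14 (SE 0.16, adjusted p = 0.00031) for Runx1KO against ZebDKO. With a pseudocount of 0.1 the former was 1.03 and passed the 2-fold limit. The filter set the direction of the latter, as no ZebDKO library passed it. Igfbp3, the main carrier in blood, was at 0.1, 0 and 0 TPM in control, at 0 in each Runx1KO library, and at 0, 0.2 and 0 TPM in ZebDKO libraries, and was not tested.

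Summed per library, the transcripts of Igfbp2 to Igfbp7 held 583.5 ± 3.84 TPM in control (mean ± SD, n = 3), 153.8 ± 5.86 TPM in Runx1KO and 297.4 ± 17.6 TPM in ZebDKO cells. Igfbp2 made up 70.7% ± 0.323 of the sum in control, 10.7% ± 0.789 in Runx1KO and 12.7% ± 0.186 in ZebDKO cells. Igfbp7 made up 14.2% ± 0.598, 87.5% ± 0.640 and 65.7% ± 0.633, and Igfbp4 made up 11.3% ± 0.357, 0.322% ± 0.103 and 20.6% ± 0.392, in the same order. The high-affinity proteins Igfbp2 to Igfbp6 alone held 500.6 ± 6.43 TPM in control, 19.2 ± 0.379 TPM in Runx1KO and 102.1 ± 7.32 TPM in ZebDKO cells. These sums follow from the values above and were not tested. Sums and shares rest on the lengths used for TPM, which the SD values do not cover. In the further table of the 6 control and Runx1KO libraries, mean Igfbp2 in control was 554.7 against 412.4 TPM here. Igfbp4 in control was at 34.2 against 65.8 TPM.

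**Figure D3:**
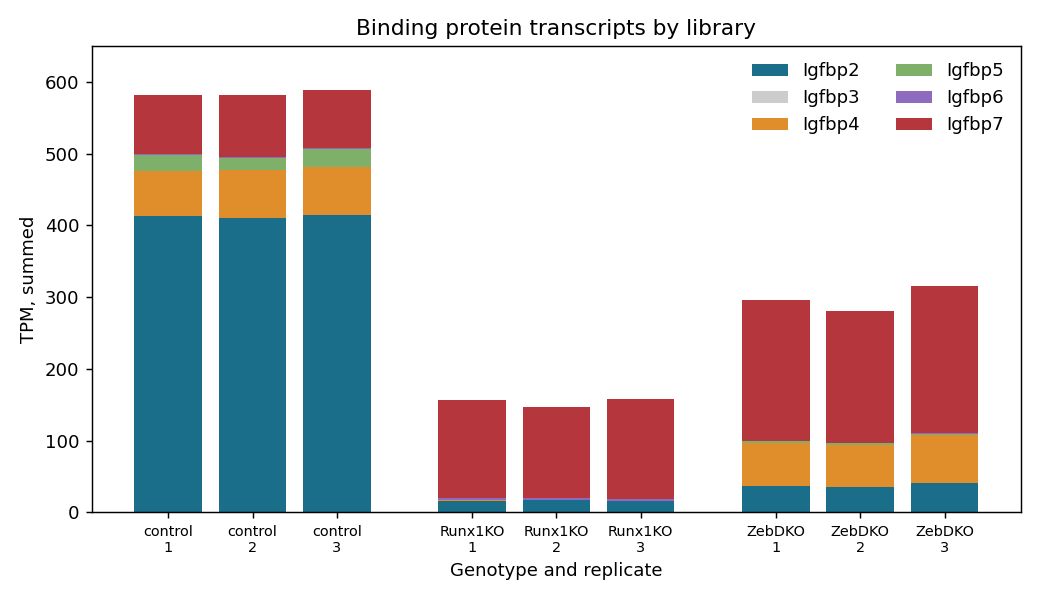
Summed TPM of Igfbp2 to Igfbp7 in each library, stacked by gene, with genotype and replicate on the horizontal axis. Igfbp2 fills most of the control bars, Igfbp7 fills most of the Runx1KO and ZebDKO bars, and Igfbp4 is visible in control and ZebDKO bars.

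The ligand Igf2 differed little. It was at 109.3, 102.2 and 106.8 TPM in control, 121.2, 120.9 and 121.3 TPM in Runx1KO, and 91.4, 97.7 and 99 TPM in ZebDKO libraries. The 3 genotypes did not overlap, but their means lay within 1.26-fold. The log2 difference was 0.19 (SE 0.031, adjusted p = 0.00122) for Runx1KO against control, and 0.33 (SE 0.036, adjusted p = 8.19e-05) for Runx1KO against ZebDKO. For ZebDKO against control it was -0.14 (SE 0.043, adjusted p = 0.0169), and 0.06 after median-ratio scaling, where it no longer passed. The antisense transcript Igf2os overlaps Igf2, and was at 20 to 21.1 TPM in control, 26 to 27.1 TPM in Runx1KO and 17.8 to 20.2 TPM in ZebDKO libraries. Its log2 difference was 0.36 (adjusted p = 0.000141) for Runx1KO against control and -0.11 (adjusted p = 0.109) for ZebDKO against control, where the libraries overlapped. Whether the counting used strand is not given in the sources used here, so reads of these genes cannot be told apart. H19, the imprinted neighbour of Igf2, was at most 0.3 TPM in any library. Igf1 was at 0.3 TPM in each control library, 0 in each Runx1KO library and 0.1 TPM in each ZebDKO library, and was not tested. The further table of 6 libraries put Igf1 at 1.5, 1.05 and 0.83 TPM in control and 0.21, 0.58 and 0.17 TPM in Runx1KO libraries.

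Igf1r, the signalling receptor, was at 33.4, 26.7 and 29.8 TPM in control, 26.7, 25.9 and 26.4 TPM in Runx1KO, and 17.8, 20.4 and 18.6 TPM in ZebDKO libraries. The ZebDKO libraries lay below all others, and Runx1KO overlapped control. The log2 difference was -0.63 (SE 0.087, adjusted p = 0.000321) for ZebDKO against control, and 0.46 (SE 0.054, adjusted p = 0.000141) for Runx1KO against ZebDKO. It was -0.17 (95% interval -0.35 to 0.01, adjusted p = 0.0758) for Runx1KO against control, -0.096 (adjusted p = 0.174) without control replicate 1 and -0.25 (adjusted p = 0.00939) without control replicate 2. Igf2r was at 55.4, 48.8 and 50.2 TPM in control, 60.2, 61.4 and 56.7 TPM in Runx1KO, and 57.6, 63.4 and 54.9 TPM in ZebDKO libraries. Its log2 differences from control were 0.21 (SE 0.055, adjusted p = 0.013) in Runx1KO and 0.18 (SE 0.068, adjusted p = 0.037) in ZebDKO cells, where the libraries overlapped. The ZebDKO value was 0.39 with median-ratio scaling and between 0.13 and 0.24 with 1 library left out, and its adjusted p was 0.0576 with the replicate block, 0.0699 with no filter, 0.0538 with no trend, and 0.0162 to 0.118 with 1 library left out. Between the knockouts the difference was 0.02 (95% interval -0.12 to 0.16, adjusted p = 0.751), and its sign turned under several alternatives. No ligand or receptor gene passed the 2-fold limit in any of the 3 comparisons. Igf1r passed a limit of 1.3-fold in both comparisons with ZebDKO cells. That limit was applied without rescaling, where the median over all genes was -0.18 for ZebDKO against control and 0.15 for Runx1KO against ZebDKO. The Igf1r differences lie on the same side as these medians, so their size depends on the scaling.

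The genes that act on the axis were described from 4 lists. Their counts of called genes stand beside the shares of all genes given above. With so few genes tested per list, nothing is read from a share. The alternatives given at the end were run on the members only. Whether calls near 2-fold in these lists, such as Insr and Pdk1 below, hold under other scaling was not tested. Of 25 genes of receptor signalling, 23 were tested in each comparison. In Runx1KO against control 1 was called lower and 0 higher, against 5.1% and 7.91% of all genes. At adjusted p alone 5 were higher and 12 lower, against 30.4% and 40.1%, and the list median was -0.11. The called gene was Pik3r1, the p85 regulatory subunit of PI3 kinase, with a mean of 5.63 TPM against 21.4 TPM in control (log2 difference -1.75, SE 0.095, adjusted p = 4.34e-06). In ZebDKO against control 3 were called lower and 0 higher, against 7.28% and 7.49% of all genes. At adjusted p alone 6 were higher and 15 lower, against 26.9% and 52.5%, and the median was -0.26. These were Pik3r1 (-1.59, adjusted p = 4.51e-06), the insulin receptor substrate Irs1 (-1.26, adjusted p = 6.86e-06) and the insulin receptor Insr (-1.18, adjusted p = 4.12e-06). Between Runx1KO and ZebDKO cells 2 were called higher and 0 lower, with 11 higher and 9 lower at adjusted p alone. They were Irs1 (1.33, adjusted p = 1.59e-06) and Pdk1 (1.09, adjusted p = 2.38e-06). Pdk1 is a kinase of pyruvate dehydrogenase and not the kinase that activates Akt, which is Pdpk1.

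Of 14 genes that set how much ligand is free, such as proteases of the binding proteins and their inhibitors, 4 were tested in each comparison with control and 3 between the knockouts. Stc2, an inhibitor of the protease Pappa, was called lower in both knockouts, with means of 9.97 TPM in control, 0.533 TPM in Runx1KO (log2 difference -2.86, adjusted p = 5.82e-06) and 0.867 TPM in ZebDKO cells (-2.57, adjusted p = 1.76e-06). For Runx1KO it passed the filter only through the control libraries. The metalloprotease Adamts1 was called higher in Runx1KO cells than in control, at 302.1 against 130.1 TPM (1.21, adjusted p = 4.92e-07), and than in ZebDKO cells, at 81.9 TPM (1.87, adjusted p = 2.14e-08). No other gene of the list was called. Pappa and Pappa2 did not pass the filter in any comparison.

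Of 9 genes near Igf2 or Igf2r in the genome or binding Igf2 mRNA, 3 were tested for Runx1KO against control, 4 for ZebDKO against control and 5 between the knockouts. The mRNA-binding proteins Igf2bp2 and Igf2bp1 were called higher in ZebDKO cells than in control, at 7.5 against 1.1 TPM (2.02, adjusted p = 3.96e-06) and at 2.17 against 0.533 TPM (1.04, adjusted p = 3.12e-05). Igf2bp2 was lower in Runx1KO than in ZebDKO cells (-2.47, adjusted p = 2.78e-07). Mas1, a receptor gene next to Igf2r, was called higher in Runx1KO cells than in control (1.57, adjusted p = 5.77e-06) and than in ZebDKO cells (1.39, adjusted p = 7.99e-06). Its mean was 1.97 TPM in Runx1KO and 0.133 TPM in ZebDKO cells, and it was listed at 0 in control. Igf2bp1 against control, Igf2bp2 between the knockouts and Mas1 passed the filter only through the group where they are high.

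The Ccn proteins are secreted matricellular proteins whose first domain resembles that of the binding proteins. Of this list of 11 symbols, which holds older names too, 6 were in the table and 4 were tested. Ccn4 and Ccn5 were called lower in Runx1KO cells than in control (-3.14, adjusted p = 4.91e-08, and -2.02, adjusted p = 5.91e-06), and 0 genes were called higher. In ZebDKO against control 0 of the 4 were called by limma, with 3 higher and 1 lower at adjusted p alone. Between the knockouts Ccn4 (-3.33, adjusted p = 4.68e-08), Ccn2 (-1.49, adjusted p = 2.24e-07) and Ccn5 (-1.13, adjusted p = 9.59e-05) were lower in Runx1KO cells. Ccn5 passed the filter in both comparisons of Runx1KO cells only through the other group. Ccn4 had a mean of 37.4 TPM in control, 3.37 TPM in Runx1KO and 42.8 TPM in ZebDKO cells.

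For each gene called in any comparison, the gene with the most similar profile was taken by Pearson's r of log2(TPM + 1) over the 9 libraries, among 11418 genes of at least 5 TPM in a group. These were B3galnt1 for Igfbp2 (r = 0.999), Ldhb for Igfbp4 (r = 0.9996), Nt5dc2 for Igfbp5 (r = 0.999), Phc2 for Igfbp7 (r = 0.997) and Ptpn1 for Igfbp6 (r = 0.978). Ldhb, a subunit of lactate dehydrogenase, had means of 45.2, 2.07 and 43.4 TPM in control, Runx1KO and ZebDKO cells. Among the members Igfbp2 and Igfbp5 had r = 0.986, and Igfbp2 and Igfbp4 had r = 0.707. The untested Igf1, at most 0.3 TPM, had r = 0.992 with Igfbp2 and r = 0.997 with Igfbp5. Igf2 and Igfbp6 had r = 0.971. The 9 libraries form 3 genotypes, so these values mostly reflect 3 group means.

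ATAC-seq, which marks open chromatin, was compared by the authors between control and Runx1KO cells, and their lists hold regions that closed, opened or stayed open in Runx1KO cells. The classes are the authors' calls, on reads of replicates that the lists do not give, so no test was made. No such lists for ZebDKO cells were used here. Regions and peaks were assigned to a gene when their middle lay in it or within 50 kb of it. There were 22 closing, 8 opening and 46 stably open regions near the 10 genes, each counted once. A closing region lay near 7 of the 10 genes, while 43.9% of the 11245 tested genes with a position had one.

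Igfbp2 and Igfbp5 stood out by their number of closing regions. Within reach of Igfbp2 there were 8 closing, 0 opening and 3 stably open regions, and within reach of Igfbp5 7, 0 and 3. Of the 11245 genes, 0.507% had at least 8 closing regions and 0.889% at least 7. The genes are neighbours, and 6 of these closing regions were the same. One spans the start of Igfbp2 and part of its coding exon, from 72870973 to 72871641, and a further one lies 1.01 kb downstream. Another spans the start of Igfbp5, from 72921370 to 72921699, and one of 1454 bp lies 3.70 kb upstream of it. Both promoter sequences printed above thus lay in chromatin that closed in Runx1KO cells, the Igfbp5 window whole and the Igfbp2 window in part.

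No Runx1 peak of control cells lay within 50 kb of Igfbp2 or Igfbp5, while 63.1% of the 11245 genes had at least 1. Runx2 had 2 peaks there in control cells. One, of 4.64-fold enrichment over background, is the 108 bp sequence printed above and lies in the closing region upstream of Igfbp5. The other lies 2.94 kb upstream of Igfbp2 (3.66-fold), outside the ATAC-seq regions. In Runx1KO cells the Runx2 list had neither of these, and held 1 peak in an intron of Igfbp5 (2.85-fold, -log10 q of 1.46), which a q-value limit of 0.01 removes. Peaks were called on pooled replicates, so absence from a list is no test of a difference in binding.

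Near Igfbp4 there were 3 closing, 2 opening and 3 stably open regions, and 9.33% of the 11245 genes had at least 3 closing regions. One closing region lies in an exon of Igfbp4, 6.30 kb from its start (chr11:98908343-98909375). The closing region 35.7 kb downstream (chr11:98937941-98938650) held a Runx1 peak of 7.27-fold enrichment and a Runx2 peak of 6.57-fold in control cells, and a Runx2 peak of 7.63-fold in Runx1KO cells. A closing region with a Runx1 peak lay near 9.34% of all 11245 genes and near 2 of the 10 members, Igfbp4 and Igf2r. This region lies in an intron of Tns4, and the start of Tns4 is nearer to it than that of Igfbp4. Tns4, looked up after its position was seen, was at 0.3 to 0.7 TPM in control, 2.3 to 2.7 TPM in Runx1KO and 2 to 2.7 TPM in ZebDKO libraries. The Igfbp4 promoter window overlapped none of the deposited regions.

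Near Igfbp7 the picture was mostly one of stable chromatin, with 1 closing, 1 opening and 7 stably open regions. One of the stable regions spans its start (chr5:77836298-77837335) and held Runx2 peaks in control (4.72-fold) and Runx1KO cells (6.09-fold). The Runx1 peak printed above had 6.005-fold enrichment and lay in another stable region, with Runx2 peaks of 4.95-fold in control and 4.06-fold in Runx1KO cells. A further Runx1 peak lay 44.9 kb upstream (4.67-fold).

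**Figure D4:**
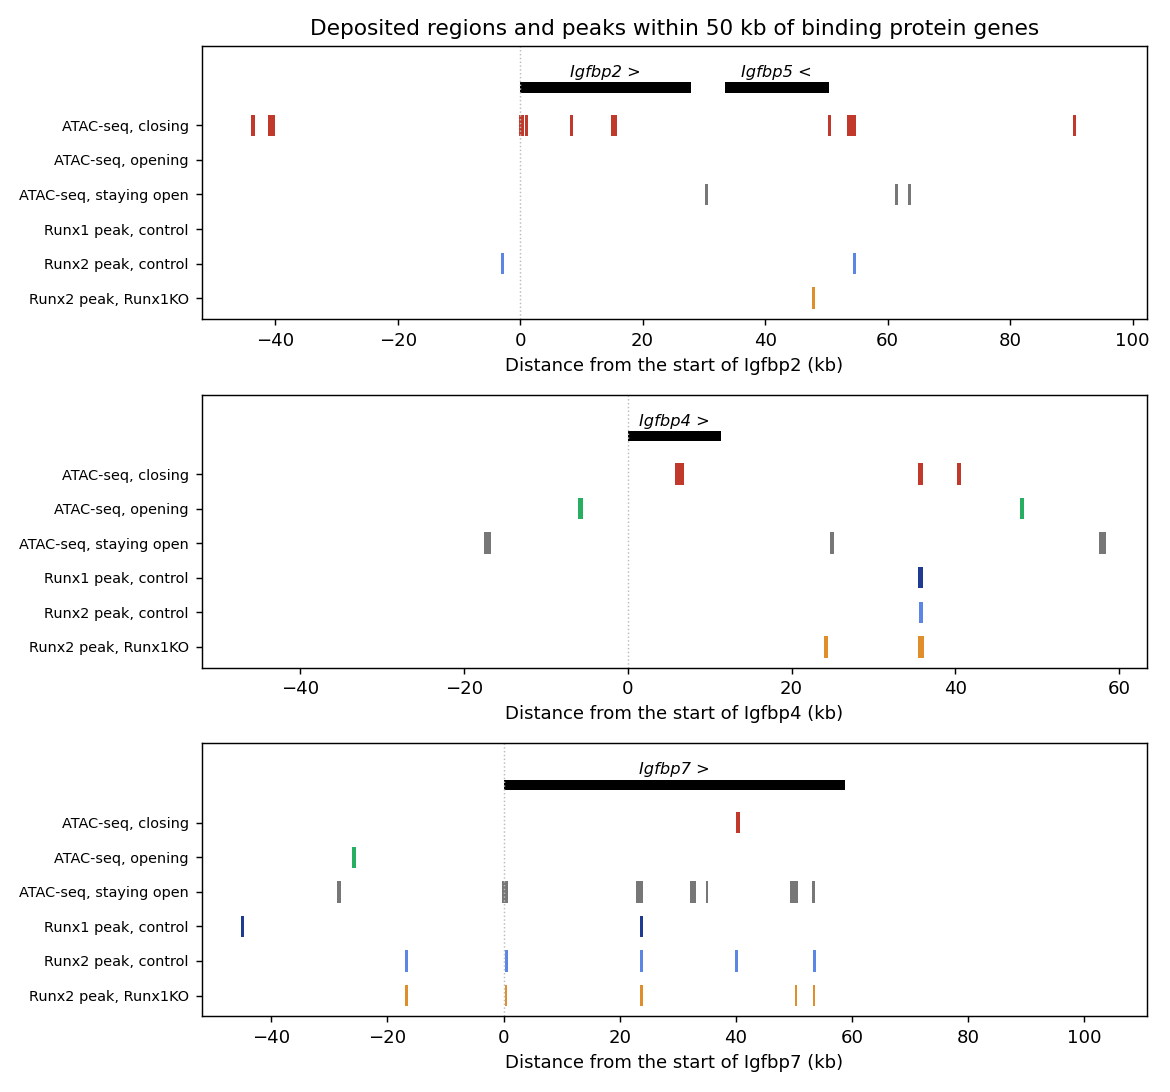
Deposited ATAC-seq regions and ChIP-seq peaks around Igfbp2 with Igfbp5, Igfbp4 and Igfbp7, by distance in kb from the start of the gene named under each panel, with gene bodies as black bars whose arrows give the direction of transcription along the axis. Regions narrower than 0.5 kb are drawn at that width. Red closing regions cover the starts of Igfbp2 and Igfbp5, and near Igfbp4 a closing region coincides with Runx1 and Runx2 peaks.

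Of the ligands and receptors, Igf2 had 0 closing, 2 opening and 2 stably open regions, and no Runx1 or Runx2 peak. An opening region lay 1.19 kb from its most upstream start. A stably open region covered 300 of 300 bases of a further RefSeq promoter window of Igf2, 8.01 kb downstream of that start. Igf1 had 2 closing regions in introns, 0 opening and 3 stably open regions. Igf1r, a gene of 274.0 kb, had 4 closing, 1 opening and 12 stably open regions and 5 Runx1 peaks, and 2.41% of the 11245 genes had at least 5. Of these 5 peaks 4 lay in stably open regions and 0 in closing ones. Igf2r had 3 closing, 1 opening and 7 stably open regions. Its Runx1 peak printed above, of 4.38-fold enrichment, lay in a closing region that also held Runx2 peaks in both genotypes. The start of Gm17592 is nearer to that region than that of Igf2r. Airn, the antisense gene in which that region lies, was listed at 0 TPM in all 9 libraries. Igfbp6 had 0 closing, 1 opening and 8 stably open regions, and Igfbp3 had 1 stably open region in an intron.

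Motif letters were counted on both strands in 200 bp around the middle of each region. TGTGGT was found in 6 of the 22 closing regions near the members, and in 26.9% of all 8741 closing regions. CAGGTA or CAGGTG, letters bound by Zeb proteins, were found in 4 of the 8 opening regions near the members, and in 50.8% of all 9427 opening regions. Both counts are close to the share of their class. All 10 members had a RefSeq promoter, 14 windows in all. TGTGGT was in 1 of these 14, that of Igfbp3, and in 16.8% of all 32851 promoter windows. CAGGTA or CAGGTG was in 4 of the 14, and in 29.5% of all windows.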

How the data were processed

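Expression in 9 RNA-seq libraries, 3 per genotype, was analysed with the deposited ATAC-seq and ChIP-seq lists. After adapter trimming (Trim Galore), the authors mapped reads to mm9 by STAR, removed duplicates, counted RefSeq genes with featureCounts 1.6.2, and deposited TPM values with 1 decimal. MACS2 peaks were deposited by the authors with a fold over background and a -log10 q-value, from pooled replicates, without the background peaks that the Runx1 antibody gave in knockout cells. The ATAC-seq lists also hold the authors' fold changes, which were not used beyond the class of each list.

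Log2(TPM + 1) of genes reaching 1 TPM in 3 of 6 libraries entered a fit by limma 3.58.1 (R 4.3.3, trend in the prior variance), which stood in for the authors' count model because the files hold TPM. The script was tested on simulated data. p-values were two-sided and measure the spread between parallel cultures. A fold change on this scale understates that of low genes. Regions were placed on GENCODE vM1 genes, and sequences were read with pysam 0.24.0 from mm9 or taken from RefSeq promoters. The members and lists were chosen with earlier results of these data known. All 10 members, the targeted genes, up to 3 called genes with the largest change per pathway list and comparison, and the most similar gene of each called member were named. Alternatives covered pseudocounts, filters, scaling, a replicate block, left-out libraries, a limit of 1.3-fold, the 6-library table, and the distance, overlap and q-value limits of peaks.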

Additional observations from a re-analysis of the deposited data

How the results depend on the processing

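Igfbp2, Igfbp4 and Igfbp5 were called lower in Runx1KO cells, and Igfbp2 and Igfbp5 lower and Igfbp7 higher in ZebDKO cells, under each alternative run on them. The count for Runx1KO against control went from 3 to 5 with the limit of 1.3-fold, which adds Igfbp6 and Igfbp7. That limit, applied without rescaling, gave 4 members for ZebDKO against control, adding Igf1r, and 6 between the knockouts, adding Igf1r and Igfbp7. The count between the knockouts went from 4 to 2 with the filter of 5 TPM, which tests 6 members and drops Igfbp5 and Igfbp6. The replicate block gave 3, 3 and 4 members called in the 3 comparisons, as without it. Libraries of the same number did not deviate together (r from -0.05 to 0.04), so they were not taken as pairs. Median-ratio scaling turned the small differences of Igf2 (0.0598) and Igfbp4 (0.10) in ZebDKO against control. The difference of Igf2r between the knockouts, near 0, was -0.136 with that scaling and -0.0473 with quantile normalization, and ranged from -0.0244 to 0.0777 with 1 library left out, below 0 without ZebDKO replicate 3 (-0.0244) or Runx1KO replicate 2 (-0.00255). Counts of peaks depend on the distance. Within 20 kb there were 5 opening regions, and 0 closing regions with a Runx1 peak, 3 with a control Runx2 peak and 2 with a Runx1KO Runx2 peak. Within 100 kb there were 14 opening and 74 stably open regions, 18 Runx1 peaks, and 33 and 38 Runx2 peaks in control and Runx1KO cells. With the nearest start only there were 26 stably open regions, 5 Runx1 peaks, 13 and 11 Runx2 peaks, and 0, 3 and 2 closing regions with these 3 kinds of peak. TPM has 1 decimal and no read numbers, so depth limits what can be said of Igf1, Igfbp3 and Igfbp6.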
